A study of Rattus norvegicus with 36 samples.

Results

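The homeostatic microglia genes are 9 transcripts by which resting microglia are recognised in rodent brain, given as a list of symbols and taken here from 20603 gene rows of one deposited table. All 9 were found by their symbol. RNA-seq libraries were made from the total RNA of frozen hippocampus of 36 female rats, 6 in each of 6 groups defined by age and by the state of the oestrous cycle. Regular cyclers were sampled at 6 months (Reg6m) and at 9 months (Reg9m), and irregular (Irreg9m) and acyclic (Acyc9m) animals at 9 months. A further group had its ovaries removed at 9 months and was sampled at 10 months (RegOVX10m), and acyclic animals were also sampled at 16 months (Acyc16m). No strain, genotype or drug is given for any group.

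Each of the 36 columns of the table carries the word hippo and a number in its name, and nothing ties a number to an animal or to a group. The libraries were therefore described as 1 ungrouped set, and no group was compared with another. A library number below is the number of its column and carries no order of age or treatment. Every spread and every correlation given here mixes differences between animals of 1 group with any differences between the 6 groups, and these cannot be told apart.

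Microglia are the resident macrophages of the brain. Csf1r is the receptor for the survival factors Csf1 and Il34, and blocking it removes microglia from rodent brain. P2ry12 and P2ry13 are receptors for adenine nucleotides, and P2ry12 guides microglial processes toward released nucleotides. Cx3cr1 binds the neuronal chemokine Cx3cl1, and Gpr34 is a receptor for lysophosphatidylserine. Tmem119 is a membrane protein used to tell microglia from blood-derived macrophages. Selplg is the ligand of P-selectin, Olfml3 a secreted olfactomedin-like glycoprotein, and Aif1 the calcium-binding protein known as Iba1. In whole tissue, fewer microglia and less RNA per microglial cell cannot be told apart.

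Because several members varied together, their promoters are shown first. RefSeq promoters (GRCr8, 250 bases before to 50 after the annotated start) were matched by symbol for 5 members, namely Csf1r, Cx3cr1, Gpr34, P2ry13 and Olfml3. The letters GAGGAA, the core bound by the myeloid factor PU.1, were searched on both strands. The Csf1r and Gpr34 windows held them and the windows of Cx3cr1, P2ry13 and Olfml3 did not, so 2 of 5 member promoters matched, against 27.6% of all 33469 promoters in the table. Csf1r and Gpr34 are printed as the windows with a match, and Cx3cr1 as the member most closely correlated with Csf1r. Capitals mark GAGGAA read on the opposite strand.
Csf1r chr18:56834129-56834428, + strand: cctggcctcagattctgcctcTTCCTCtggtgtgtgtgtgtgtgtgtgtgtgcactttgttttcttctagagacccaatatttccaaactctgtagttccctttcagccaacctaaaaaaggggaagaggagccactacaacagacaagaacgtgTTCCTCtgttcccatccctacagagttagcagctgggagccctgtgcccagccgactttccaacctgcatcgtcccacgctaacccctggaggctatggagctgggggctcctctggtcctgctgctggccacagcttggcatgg
Gpr34 chrX:11785787-11786086, - strand: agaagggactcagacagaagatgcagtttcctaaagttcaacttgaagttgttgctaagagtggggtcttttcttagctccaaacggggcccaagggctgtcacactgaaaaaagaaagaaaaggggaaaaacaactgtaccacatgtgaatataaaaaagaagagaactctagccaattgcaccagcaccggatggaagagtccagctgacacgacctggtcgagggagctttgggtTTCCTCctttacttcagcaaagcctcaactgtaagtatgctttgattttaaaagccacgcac
Cx3cr1 chr8:128677017-128677316, - strand: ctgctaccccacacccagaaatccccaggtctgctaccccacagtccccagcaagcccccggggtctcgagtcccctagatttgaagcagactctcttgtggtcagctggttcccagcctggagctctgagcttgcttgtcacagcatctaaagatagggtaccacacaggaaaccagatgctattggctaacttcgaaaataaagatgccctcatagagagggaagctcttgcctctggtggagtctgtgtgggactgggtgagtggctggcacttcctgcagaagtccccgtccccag
The Csf1r window held 2 matches and the Gpr34 window 1, all on the strand opposite to the gene. Such a match is a string of letters, and binding was not measured.

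All 9 members were detected in every library and passed the filter of a mean normalized count of at least 10, which left 15893 genes. Levels are the authors' normalized counts. Whether transcript length enters them is not stated, so levels are compared between libraries and not between genes. The growth factor receptor Csf1r had 2383 normalized counts in its lowest library, a median of 2898 and 3633 in its highest. It was the most even member, with an interquartile range of 0.16 on the log2(value + 1) scale, and its highest library exceeded its lowest 1.52-fold.

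Among the nucleotide receptors, P2ry12 ran from 348 through a median of 446 to 562 normalized counts. P2ry13 ran from 105 through a median of 145 to 198. The chemokine receptor Cx3cr1 ran from 444 through a median of 672 to 876. These 3 receptors spanned 1.62-fold, 1.89-fold and 1.97-fold between the lowest and the highest library. Gpr34 ran from 460 through a median of 674 to 946. Its interquartile range of 0.41 was larger than that of 89.0% of the genes that passed the filter.

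Tmem119 varied most. It had 240 normalized counts in its lowest library, a median of 428 and 843 in its highest, a 3.51-fold range. Its interquartile range of 0.73 exceeded that of 98.3% of genes. Selplg came next, with 649 counts in its lowest library, a median of 1015, a highest value of 1774 and an interquartile range of 0.52, larger than that of 94.1% of genes. No single gap split either gene into separate sets, since the widest step between neighbouring libraries took up 0.118 of the log2 range of Tmem119 and 0.215 of that of Selplg.

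The secreted protein gene Olfml3 ran from 71.9 through a median of 88.8 to 119. Aif1 ran from 366 through a median of 461 to 577, a 1.58-fold range. The median interquartile range over the 9 members was 0.27, against 0.15 over all genes that passed, and each of the 9 lay above that value. The members therefore differed between libraries more than the median gene did, by an amount that was small for Csf1r and large for Tmem119 and Selplg.

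**Figure D1:**
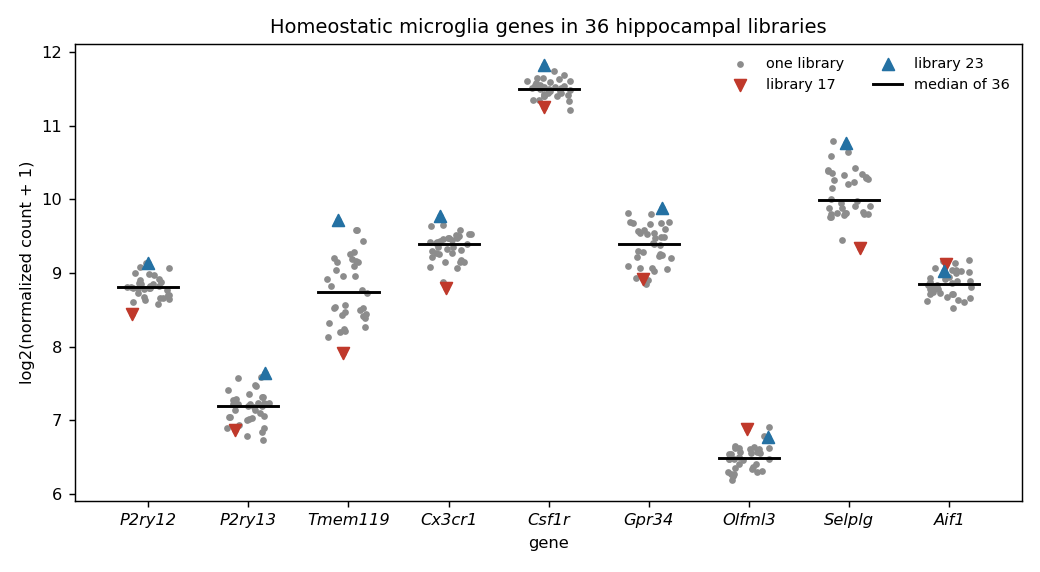
Each point is 1 of 36 libraries, the vertical axis is log2(normalized count + 1), and black lines are medians. Library 23 was the highest in 6 of the 9 genes and library 17 the lowest in 4, while library 17 stood near the top in Olfml3 and Aif1. The vertical positions of different genes are not comparable, since it is not stated whether length enters the counts.

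The same few libraries stood at the ends of most members. Library 23 had the highest value in 6 members, P2ry12, P2ry13, Tmem119, Cx3cr1, Csf1r and Gpr34, and was among the top 3 in 7. Library 17 had the lowest value in 4 members, P2ry12, Tmem119, Cx3cr1 and Selplg, and was among the bottom 3 in 6. Library 18 was also among the bottom 3 in 6 members. Library 17 was high in 2 members, with 116 normalized counts of Olfml3 and 558 of Aif1, both above the upper quartiles of 97.0 and 518. Library 23 had 109 normalized counts of Olfml3, also above its upper quartile, and library 19 had the highest value of 119.

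Library 17 also stood apart in its other contents. Its rank correlation with the other libraries had a median of 0.993, the lowest of the 36, where the next lowest was 0.995. The summed level of 9 oligodendrocyte genes ran from 130760 to 357675 normalized counts over the libraries, and the highest value was that of library 17. Its summed astrocyte, endothelial, mural, meningeal and red blood cell genes were also the highest of the 36, and its 11 neuronal genes the lowest, at 304827 against a median of 344680. No pair of libraries held identical values, and library totals ran from 34455978 to 35985904 normalized counts. Of 7 genes of hippocampal fields, 6 passed the filter, all but Lct, and the summed level of the list ran from 40320 to 53971 normalized counts. All 48 genes of a list of other microglia genes passed it. The choroid plexus list ran from 53.5 to 1965 normalized counts, with library 8 the highest. Values without library 17 are given below for the called member pairs and for pairs of Olfml3 and Aif1.

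Over the 36 libraries the members varied together to different degrees. Pearson's r on log2(value + 1) was above 0 in all 36 pairs of members, with a median of 0.42 and a range from 0.00060 to 0.95. Of these pairs, 12 passed a two-sided permutation test with 100000 resamples and Benjamini-Hochberg adjustment over all 142992 pairs of a member with any gene. These 12 of 36 pairs are 33.3%, against 0.191% of all tested pairs called with r above 0. The median r over all tested pairs was 0.0029. The members were assembled as one cell type's genes, so a share above that background describes the list and was not tested further. All 12 called pairs lay among the 21 pairs of the 7 members other than Olfml3 and Aif1.

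Csf1r and Cx3cr1 were the closest pair of receptors, with r of 0.83 and Spearman's rho of 0.75 (adjusted p = 0.0128, permutation test). Without the 2 libraries farthest from the median in Cx3cr1, r was 0.77. P2ry12 and P2ry13, related receptors whose genes lie next to each other, had r of 0.79 and rho of 0.73 (adjusted p = 0.0128, permutation test). P2ry12 was also called with Csf1r, at r of 0.75, with Cx3cr1, at 0.73, and with Gpr34, at 0.63. The raw p of 8 of the 12 called pairs was 1e-05, the smallest that the resamples can give, and the largest was 7e-05.

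Csf1r was called with 6 of the 8 other members, the most of any, where 0.145% of all genes were called with it. Cx3cr1 was called with 4 members (0.176% of all genes) and P2ry12 with 4 (0.0881%). P2ry13 was called with 3 (0.107%), Gpr34 with 3 (0.145%), Tmem119 with 2 (0.0252%) and Selplg with 2 (0.0315%). Olfml3 and Aif1 were called with 0 members, where 0.00629% and 1.07% of all genes were called with them. At unadjusted p under 0.05 by the permutation test, 20 of the 36 member pairs passed. The share of all tested pairs at that looser threshold is not given here, so this count has no background. With r below 0, called genes were 0.116% of all tested pairs, and 0 member pairs were among them. That share was 0.0629% for P2ry12, 0.0503% for P2ry13, 0.0252% for Tmem119, 0.0126% for Selplg and 0.044% for Cx3cr1. It was 0.843% for Aif1, 0.00629% for Gpr34, and 0% for Csf1r and Olfml3.

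Without library 17, 4 of the 12 calls were lost and 8 pairs stayed called: the pairs of Gpr34 with P2ry12, Cx3cr1 and Csf1r and the pair of P2ry13 with Csf1r had adjusted p of 0.0784, 0.0536, 0.0793 and 0.0603 by the permutation test. Their r without it was 0.59, 0.60, 0.57 and 0.60, and the r of all 12 pairs ran from 0.57 to 0.95. Without the 2 libraries farthest in 1 gene of the pair, r of the 12 ran from 0.50 for Csf1r and Gpr34 to 0.94 for Tmem119 and Selplg. By Spearman's rho, 8 of the 12 were called, and rho ran from 0.56 to 0.91. Leaving out library 17 also moved pairs that were not called: Olfml3 then had r of 0.26 with Csf1r, 0.25 with Gpr34, 0.25 with Cx3cr1 and 0.17 with P2ry12, against 0.11, 0.12, 0.039 and 0.00060 with it, and none of these was called.

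**Figure D2:**
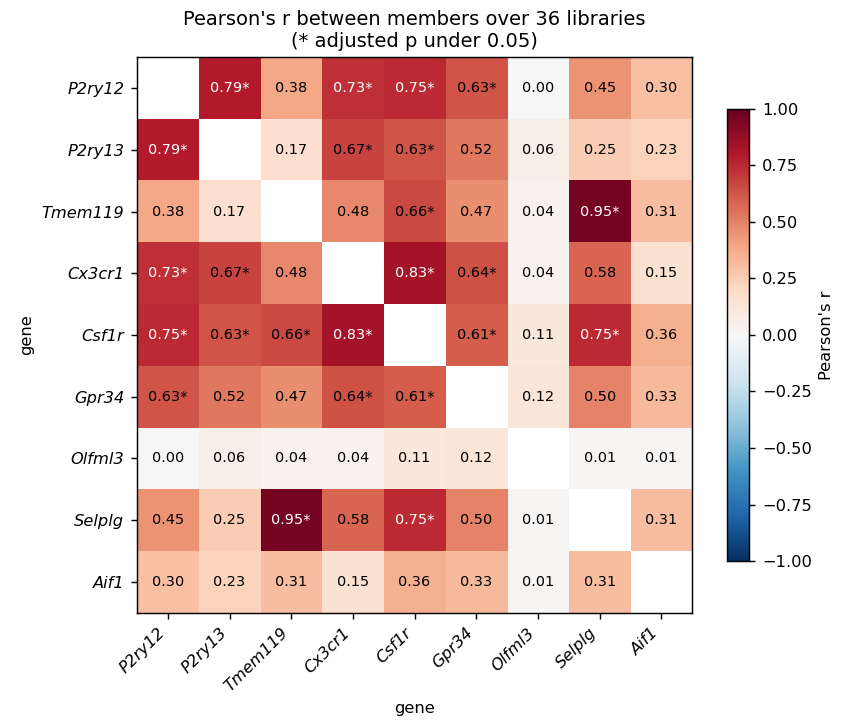
Each cell gives Pearson's r between 2 members on log2(normalized count + 1) over 36 libraries, and colour shows the same r. Stars mark the 12 pairs with adjusted p under 0.05; the row of Olfml3 lies between 0.00060 and 0.12 with library 17 included and reaches 0.26 without it, and that of Aif1 has no star.

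Tmem119 and Selplg formed the tightest pair of the list, with r of 0.95 and rho of 0.91 (adjusted p = 0.0128, permutation test). Without the 2 libraries farthest in Tmem119, r was 0.94. Both genes were called with Csf1r, at r of 0.66 for Tmem119 and 0.75 for Selplg. With P2ry12 their r was 0.38 and 0.45, with P2ry13 it was 0.17 and 0.25, and none of these 4 was called. So the 2 members with the widest ranges shared most with each other and less with the nucleotide receptors; the difference between these correlations was not tested.

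The gene outside the members most like both was the same. Iscu, the scaffold on which cells assemble iron-sulfur clusters, had r of 0.82 with Tmem119 and 0.79 with Selplg (adjusted p = 0.0128 for each, permutation test). Without the 2 libraries farthest in the member, these were 0.81 and 0.78. Iscu had 2169 normalized counts in its lowest library, a median of 2672 and 3282 in its highest, a 1.51-fold range. With the other 7 members its r ran from -0.07 to 0.39, and it was called with 0 of them.

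In the GRCr8 annotation, Selplg, Tmem119 and Iscu stood next to each other in this order among the genes that passed the filter. Of the 15893 genes, 13511 were placed by symbol, and each member was compared with the 5 such genes on either side. For Tmem119, 2 of 10 neighbours were called with r above 0, Selplg and Iscu, and 1 was called with r below 0, Cmklr1, the chemerin receptor, with r of -0.66. For Selplg the called neighbours were Tmem119, Iscu and Cmklr1, the last with r of -0.66. Without the 2 libraries farthest in the member, these r were -0.58 and -0.56. By Spearman's rho neither was called, at -0.55 for Tmem119 (adjusted p = 0.104, permutation test) and -0.54 for Selplg (adjusted p = 0.128).

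Other neighbours of Tmem119 had r below 0 without passing the test. Ssh1, a cofilin phosphatase, had r of -0.55 (adjusted p = 0.0896, permutation test), Sart3 -0.36 and Coro1c, an actin-binding coronin, -0.31. The r of Ssh1 was not particular to these neighbours, since it was -0.66 with Aif1 on chromosome 20, and that pair was called. A tie as close as that of Tmem119 and Selplg was uncommon between neighbours in the table. The median r was 0.053 over 67231 pairs of genes at most 5 places apart, and 3 of those pairs reached the r of Tmem119 and Selplg, that pair included. The pair P2ry12 and P2ry13 was reached or passed by 181 of them. P2ry12 and P2ry13 both lie within the span of Med12l, and Gpr34 within that of Cask. No source used here states whether strand was used in counting, and whether reads are shared there was not tested. Med12l had r of 0.21 with P2ry12 and 0.21 with P2ry13, and Cask had -0.15 with Gpr34. The neighbours of Aif1, Csf1r, Cx3cr1, Gpr34 and Olfml3 included 0 called genes in either direction by the permutation test.

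**Figure D3:**
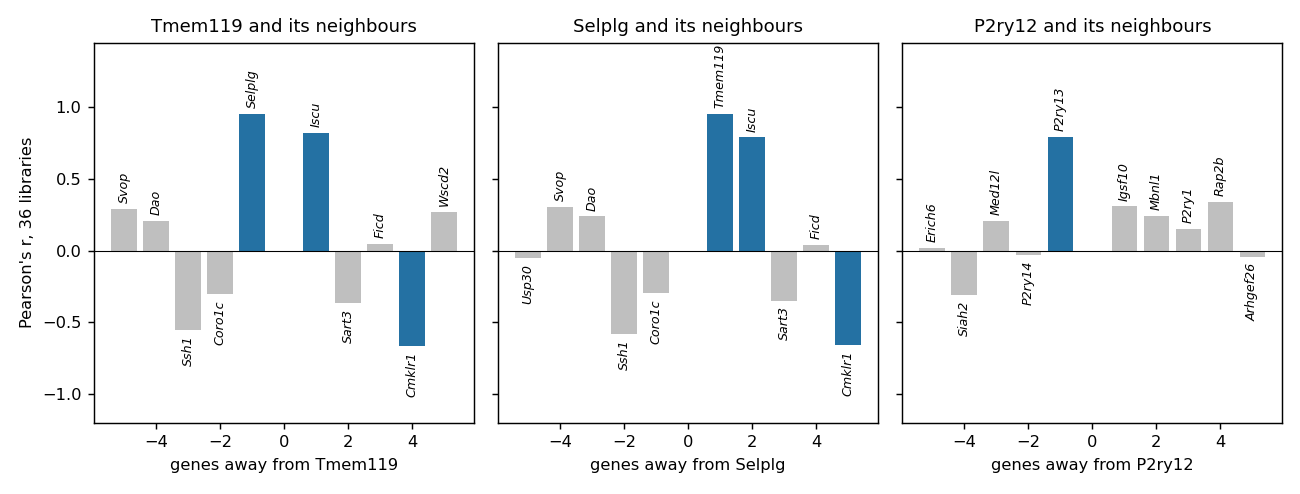
Bars give Pearson's r over 36 libraries of Tmem119, Selplg and P2ry12 with the 5 genes on either side, ordered by place in the annotation, and blue bars have adjusted p under 0.05. Selplg, Tmem119 and Iscu form 1 run of high values, with Cmklr1 and Ssh1 below 0 around them, while P2ry12 has 1 blue neighbour, P2ry13.

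**Figure D4:**
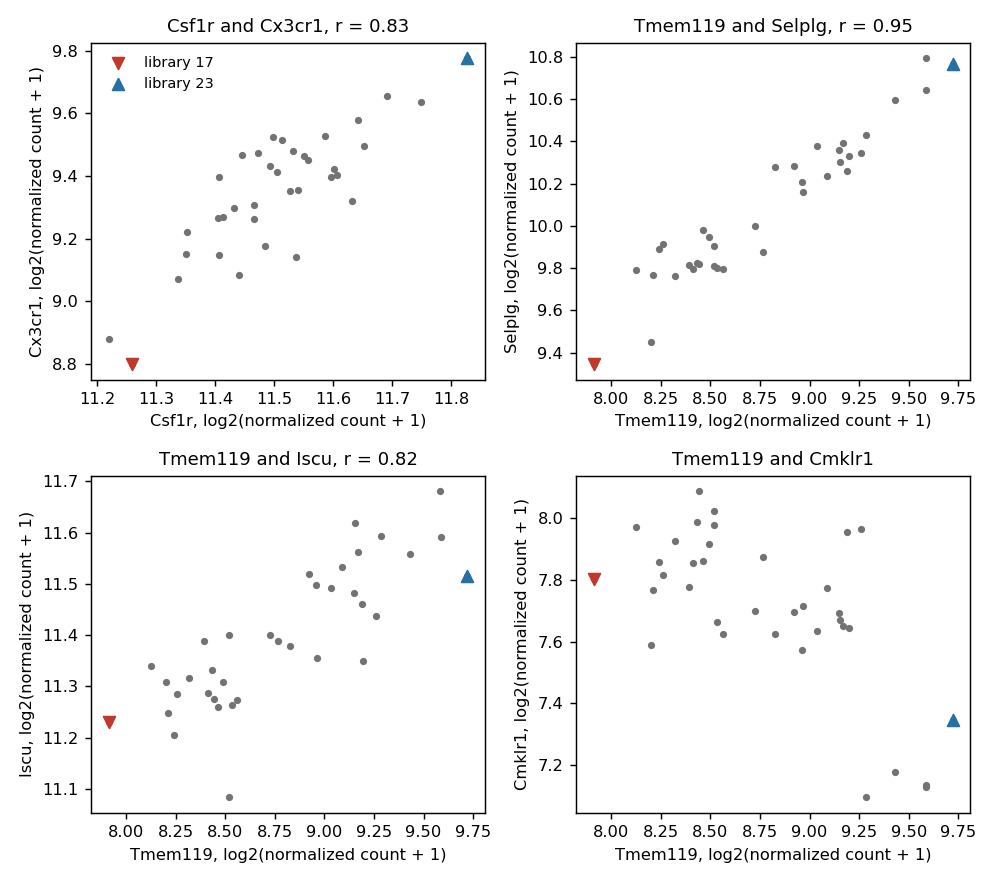
Each point is 1 of 36 libraries, and both axes are log2(normalized count + 1). Csf1r with Cx3cr1, Tmem119 with Selplg and Tmem119 with Iscu rise together with r of 0.83, 0.95 and 0.82, and in the plot of Cmklr1 the libraries with the most Tmem119 sit lowest.

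The nearest genes outside the members differed between members, with several shared. Those of Csf1r were Ptafr, the receptor for platelet-activating factor (r = 0.79), Cyth4, a cytohesin of blood cells (0.71), and the hexokinase gene Hk2 (0.70). Those of Cx3cr1 were C5ar2, a receptor for complement C5a (0.75), the ubiquitin ligase gene Rnf4 (0.74) and Ptafr (0.72). P2ry12 was closest to the sialic acid receptor gene Cd33 (0.70), the exonuclease gene Xrn2 (0.67) and C5ar2 (0.62). Close to P2ry13 were the zinc finger gene Zfp867 (0.71) and Rnf4 (0.70). Each of these pairs was called.

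Gpr34 was closest to the adaptor gene Skap2 (0.73), the cyclooxygenase gene Ptgs1 (0.70) and the RNA sensor gene Tlr7 (0.69), all called. Tmem119 was followed after Iscu by the ubiquitin ligase gene Ube3b (0.58, called) and by the lysosomal protease gene Ctss (0.58, not called). Selplg was followed by the lymphoid and myeloid factor Ikzf1 (0.60, called) and Cyth4 (0.60, not called). Olfml3 was closest to Zfp287 (0.60, the only gene called with it among 15892), which had an adjusted p of 0.0630 without library 17 by the permutation test. Its next genes, the potassium channel subunit gene Abcc9 (0.55) and the interleukin receptor gene Il1r1 (0.54), were not called.

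Aif1 was called with none of the members. Its r with the other members ran from 0.013 with Olfml3 to 0.36 with Csf1r. Without library 17, r was 0.46 with P2ry12, 0.31 with Cx3cr1 and 0.49 with Csf1r, against 0.30, 0.15 and 0.36 with it. None of the Aif1 pairs was called in either case. Its nearest genes were the annexin gene Anxa3 (0.79), the ribosomal protein gene Rpl37a (0.78) and B2m, the light chain of class I molecules (0.77), all called with an adjusted p of 0.0128 by the permutation test. Of 64 genes for cytosolic ribosomal proteins, a set chosen after these values were seen, 40 were called with Aif1 with r above 0, and the median r was 0.64. With the other 8 members the same 64 genes had median r from -0.20 for Cx3cr1 to 0.050 for Tmem119, and 0 were called with any of them. Aif1 was also the member with the most called genes of all, 170 with r above 0 and 134 with r below 0.

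Fcer1g and Tyrobp, adaptors that carry the activating signal of microglial receptors, had r of 0.77 and 0.75 with Aif1, both called. With Csf1r they had 0.24 and 0.15, neither called, and the difference was not tested. Trem2, the lipid receptor that signals through Tyrobp, had r of 0.47 with Aif1 and 0.12 with Csf1r, and neither was called. Fcer1g, Tyrobp and Trem2 were picked after their values were seen, and other microglia genes went the other way. Cd33 had r of 0.39 with Aif1 and 0.67 with Csf1r, and Adgre1 had 0.31 and 0.64. How many microglia genes lay on each side was not counted.

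A list of 48 other microglia genes was set beside the members. Of its 432 pairs with a member, 21 (4.86%) were called with r above 0 and 0 with r below 0 by the permutation test. The median over the list of each gene's median r with the members was 0.30, against -0.0012 over the 15884 genes outside the members, and 46 of the 48 lay above 0. Cd33 stood highest at 0.54 and was called with 4 members. Adgre1, which encodes the macrophage marker F4/80, was called with 3, and Cyth4 and the migration factor Dock2 with 2 each. Coro1a, an actin-binding coronin of blood cells, stood lowest at -0.12.

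Of 12 ligands, lineage factors and receptor genes, 3 of 108 pairs were called. Tgfbr1, a receptor for TGF-beta, on which microglial identity depends in mice, had a median r of 0.49 and was called with 2 members. The ligands of the member receptors were called with 0 members: Il34 had a median r of -0.0067, Csf1 0.080 and the Cx3cr1 ligand Cx3cl1 -0.18. The lineage factor genes Spi1, which encodes PU.1, Irf8 and Sall1 had median r of 0.23, 0.26 and 0.26, each with 0 called members.

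Genes of activated microglia had a median r of 0.048 over the 11 of 17 that passed the filter. Of their 99 pairs, 0 were called by the permutation test in either direction. Itgax, Cst7, Clec7a, Ccl3, Ccl4, Il1b and Tnf were not among the 11, so the value does not cover them. Which cells of the whole tissue gave the RNA of the 11 was not tested. Among them Cd9 stood lowest at -0.36. Its r was -0.51 with Cx3cr1 and 0.41 with Aif1, where the oligodendrocyte gene Mog had -0.55 and 0.33. These values include library 17, and the r of Cd9 with Mog is not given here. The list of border macrophages, which live along vessels and in the meninges, stood at 0.18 over 5 genes, with 0 of 45 pairs called. Its whole summed level ran from 211 to 364 normalized counts, and that of the mannose receptor gene Mrc1 within it from 24.7 to 85.8. The blood leukocyte list had 1 of 8 genes past the filter, Cd3e, and its summed level ran from 23.5 to 413. Most of that sum was Cd3e, which alone ran from 10.7 to 393, so the range mainly describes 1 gene.

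Oligodendrocyte genes lay on the other side of 0. All 9 had a negative median r with the members, from -0.32 for Mog to -0.15 for Opalin, and the list's median was -0.26, with 0 of 81 pairs called by the permutation test in either direction. With Aif1 the myelin genes had r above 0, such as 0.44 for Mbp and 0.33 for Mog. All of these values include library 17, whose summed oligodendrocyte level was 357675 against 232250 in the next highest library. Library 17 was also the lowest in 4 members and above the upper quartile in Aif1. The r of the oligodendrocyte genes without it is not given here, so how far these signs rest on 1 library is not known. When log2(value + 1) was first adjusted for the summed oligodendrocyte level, 10 member pairs were called. The 2 gained were Aif1 with P2ry12 (r = 0.64, adjusted p = 0.0458, permutation test) and with Csf1r (r = 0.63, adjusted p = 0.0390). Of the 12 earlier calls 8 stayed and 4 were lost. The lost pairs were P2ry12 with Gpr34, P2ry13 with Cx3cr1 and with Csf1r, and Csf1r with Gpr34. Their adjusted p ran from 0.0608 to 0.111 by the same test. That adjustment was chosen after seeing the data. The share of all genes called after it is not given here, so these counts have no background. Neuronal genes stood at a median of 0.054, astrocyte genes at 0.089 and endothelial genes at 0.011.

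**Figure D5:**
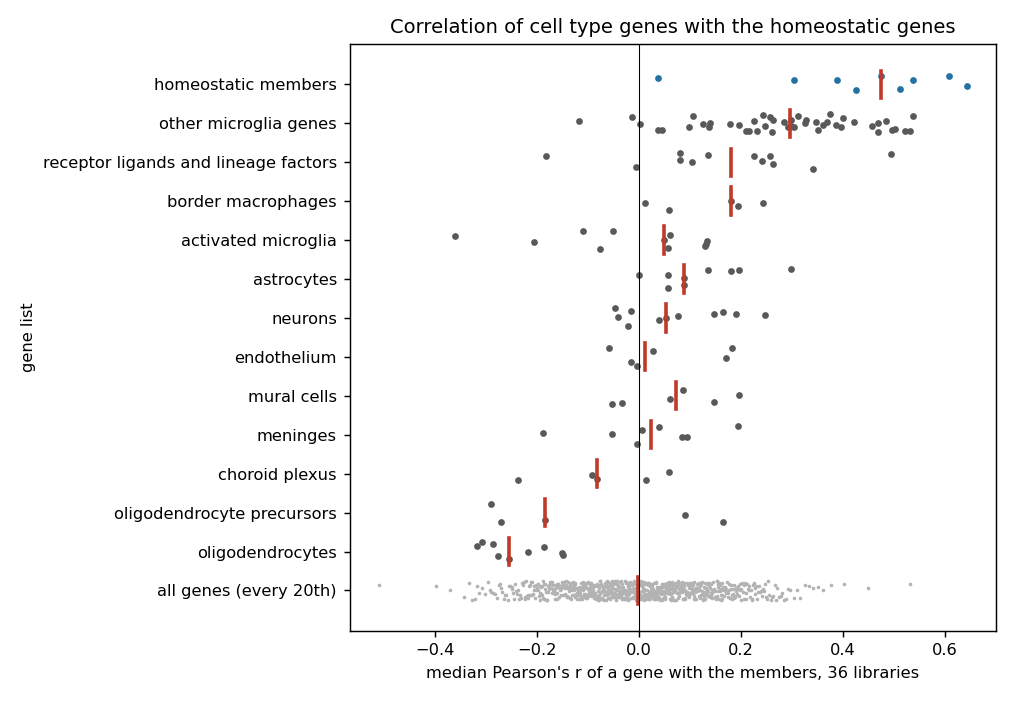
Each point is 1 gene, placed by the median of its Pearson's r with the members over 36 libraries, red bars are medians, and the bottom row shows 1 in 20 of all genes. The members centre on 0.47 and other microglia genes on 0.30, while oligodendrocyte genes centre on -0.26.

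Ranked over all genes with a symbol, those most like the members as a set included C5ar2 (median r 0.59), Ptafr (0.55), Cd33 (0.54) and Cyth4 (0.53). Golm1 and Nckap1l (0.52 each), Anxa3 (0.51), Laptm5 and Hk2 (0.50 each) had lower values. C5ar2, measured at 28.6 to 66.3 normalized counts, was called with 4 members. At the other end stood Jmjd6 (-0.51), Lrrc71 (-0.50) and Zfp566 (-0.48). Jmjd6 and Lrrc71 were each called with 2 members with r below 0, and Zfp566 with 0. Jmjd6 had r of -0.80 with P2ry13 and -0.69 with P2ry12, and -0.17 with Tmem119.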

How the data were processed

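RNA-seq of rat hippocampus was used as the authors deposited it, as a per-gene signal of normalized counts that is never negative and not whole, scaled between libraries by the authors. Kallisto 0.43 and DESeq2 are listed in the submitters' processing notes, with no step attached to either. The transcriptome and the scaling method are not given in the sources used here, and the read depth behind each value is unknown, because low values share no common step. The column names show the tissue but not the animal, so all 36 columns entered as the hippocampus group that the labels give, and 0 other columns were present. The planned fits were correlations, not comparisons of groups.

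Values were taken as log2(value + 1). Genes with a mean of at least 10 were kept. Pearson's r of each member with each kept gene was tested by permuting libraries 100000 times, two-sided, with Benjamini-Hochberg adjustment over all 142992 pairs; a pair counts as called at an adjusted p under 0.05. The procedure was tested on simulated data. Python 3.11.15, numpy 2.4.6 and pandas 2.3.3 were used.

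The members and gene lists were chosen with earlier results of these data known. Genes named beyond the members are the 3 most correlated with each member, the 10 highest and 3 lowest in median r with the members, and the ends of each list; results that would need a withheld item are not reported here. Exceptions were named after their values were seen: the neighbours of Tmem119, Selplg and P2ry12, and Fcer1g, Tyrobp, Trem2 and the other list genes that were called or whose roles bear on the members. Alternatives covered scaling, pseudocount, filter, rank correlation, libraries left out and adjusted values.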

Additional observations from a re-analysis of the deposited data

How the results depend on the processing

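The count of called member pairs was 12 under both rescalings, pseudocounts of 0.5 and 10, either filter and adjustment for the library total. It was 8 by Spearman's rho, without the 2 libraries farthest in summed member level, and without library 17. It was 9 without the 2 libraries farthest on the first principal component and 9 after adjustment for that component, and 10 after adjustment for the oligodendrocyte level. The share of all genes called under each alternative is not given here. The median r over the 36 pairs stayed between 0.33 and 0.49. Over all 13 alternatives, 22 of 468 single-pair results lost their call, 2 gained one, and no called pair changed sign. The pairs of Csf1r with Gpr34 and P2ry12 with Gpr34 lost theirs most often. Of 400 results on named genes outside the members, 27 lost a call and 10 gained one, and Ube3b with Tmem119 lost its call most often. The cause was not tested. The alternatives without library 17 and with the oligodendrocyte level were chosen after seeing the data. Calls are limited by the number of resamples, since the smallest raw p was 1e-05, and the depth of the libraries is unknown. No paired analysis was possible because the columns carry no replicate numbers of a group.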

Other observations

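Cmklr1, a receptor for the chemoattractant chemerin, was lowest where its neighbour Tmem119 was highest. The 5 libraries with the least Cmklr1, numbers 9, 15, 19, 23 and 26, had 136 to 161 normalized counts of it, and the other 31 had 189 to 271. The step between them was the widest in the gene and took up 0.229 of its log2 range, close to the 0.215 of the widest step in Selplg, so it was not read as a split. The same 5 libraries held ranks 32 to 36 of 36 in Tmem119, with 623 to 843 normalized counts, where the other 31 had 240 to 612. In Selplg they had 1380 to 1774, where the others had 649 to 1344. In Iscu they had 2927 to 3282 and the others 2169 to 3145, so those values overlapped. In Csf1r they had 2862 to 3633 and the others 2383 to 3304, which also overlapped. Library 26 held rank 2 of 36 in P2ry12 and library 9 rank 1 in P2ry13, where 36 is the highest. Cmklr1 was named after its r with Tmem119 and Selplg was seen, so the separation in those genes partly restates it. How many of all genes separate the same 5 libraries is not given here. These libraries were picked by their Cmklr1 values and are not a group of the study, so no test was made between them and the rest. Which animals they came from is not known.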
